A study of Rattus norvegicus with 2 samples.

Results

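The cytochrome P450 and xenobiotic conjugation genes of bone mesenchymal stem cells (BMSCs) were examined after the administration of icariin, a flavonol glycoside of Epimedium. The set comprised every sequence on the array whose gene symbol, in the file or in current RefSeq, was that of a numbered P450 other than Cyp51, of a UDP-glucuronosyltransferase of family Ugt1 or Ugt2, or of a sulfotransferase (Sult), together with Ahr, Ahrr, Arnt2, Por and Tiparp. This gave 120 of the 24210 genes measured, through 137 of 26419 sequences, namely 81 P450 genes, 18 glucuronosyltransferases, 16 sulfotransferases and the 5 genes added by name. Of the genes chosen for description whatever their level, Cyp19a1, the aromatase gene, was not analysed here.

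Each condition was measured on 1 NimbleGen array with Cy3 as the only dye. The DMSO array held RNA of rat BMSCs given the solvent, and the icariin array held RNA of rat BMSCs after 24 h with 20 μM icariin, whereas the sources used here do not give the time in DMSO. Both groups were marrow cells that had adhered to plastic, at passages 2 to 3, from Sprague–Dawley rats aged 4 weeks, which the labels call female and the methods male. With 1 array per condition no difference has a replicate check and no p-value exists, so "higher" and "lower" describe the icariin array against the DMSO array, and the number of arrays limits the precision of every value.

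Cytochrome P450 enzymes are haem proteins that insert an oxygen atom into lipophilic substrates. In the microsomal P450 enzymes, the electrons are delivered from NADPH by the reductase that Por encodes. Families CYP1 to CYP3 act mainly on drugs and other foreign compounds, whereas the other families serve fatty acids, steroids, bile acids, vitamin D and retinoic acid. Glucuronosyltransferases and sulfotransferases then attach glucuronic acid or sulfate to the products, and flavonoids are well-known substrates of both. The aryl hydrocarbon receptor, encoded by Ahr, is activated by planar aromatic ligands and induces CYP1 genes, Tiparp and its own repressor Ahrr.

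Background was read in 2 ways. Probes of random sequence gave a signal of 73.8 on the DMSO array against 78.4 on the icariin array. Olfactory and vomeronasal receptor genes, 1425 in all and taken as silent in BMSCs, gave a stricter limit, called the receptor level here, which is their 95th percentile (148 and 168). Of 14 marrow stromal markers, 11 passed it on both arrays, from Eng at 185 and 232 to Col1a1 at 33820 and 39096, while Lepr, the leptin receptor, passed it on neither. Vcam1, an adhesion molecule, was the 1 stromal marker lower by 2-fold or more (401 and 79.6, at least 2.38-fold), and Kitlg, the stem cell factor gene, read 296 and 168. Of 13 macrophage markers, 9 passed the receptor level on both arrays and 4 on the icariin array only. All 13 read higher after icariin, and 9 were counted as higher by 2-fold or more, of which 6 passed that level on both arrays. Their summed intensity was 6259.7 on the DMSO array against 19335 on the icariin array, and all 13 exceeded the random-probe signal on both arrays. Their part in the results below was not tested. In such bulk RNA, fewer cells of a type and less RNA per cell cannot be told apart.

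Regulatory sequences are shown here for genes of this set that are known to answer to the aryl hydrocarbon receptor or to retinoic acid. Each run is the 250 bases before the start site, 5′ to 3′ on the strand of the gene, from the RefSeq promoter table of assembly GRCr8, in which 99 of the 120 genes matched an entry by symbol. In the AhR-related genes, the capitals mark the letters TNGCGTG, which contain the core that the receptor and its partner ARNT bind. The runs lie at chr6:21094315-21094564 (plus strand), chr1:30821969-30822218 (plus strand) and chr2:152063519-152063768 (plus strand).
Cyp1b1: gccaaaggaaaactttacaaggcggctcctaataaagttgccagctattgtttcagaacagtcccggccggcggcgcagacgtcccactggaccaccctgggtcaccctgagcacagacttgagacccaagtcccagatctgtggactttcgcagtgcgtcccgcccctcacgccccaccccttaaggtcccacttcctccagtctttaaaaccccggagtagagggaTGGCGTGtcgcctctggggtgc
Ahrr: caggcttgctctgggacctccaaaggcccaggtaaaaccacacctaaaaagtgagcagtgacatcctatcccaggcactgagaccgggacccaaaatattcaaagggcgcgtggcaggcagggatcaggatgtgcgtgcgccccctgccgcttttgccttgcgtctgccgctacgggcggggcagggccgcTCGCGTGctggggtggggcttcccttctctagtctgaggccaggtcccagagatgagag
Tiparp: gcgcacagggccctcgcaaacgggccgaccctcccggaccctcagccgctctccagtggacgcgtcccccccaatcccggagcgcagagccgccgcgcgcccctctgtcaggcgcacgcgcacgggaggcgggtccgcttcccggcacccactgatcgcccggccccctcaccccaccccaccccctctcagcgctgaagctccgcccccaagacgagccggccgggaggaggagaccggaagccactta

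Searched on both strands of the 250 bases, TNGCGTG was present in 1370 of all 33469 promoters (4.09%) and in 5 of the members, namely Ahrr, Cyp1b1, Cyp26b1, Ugt1a3 and Ugt2b34l1. It began 22 bases before the start site in Cyp1b1 and 59 bases before it in Ahrr. The window of Tiparp held no match, which says only that TNGCGTG is not in it. The shorter core within TNGCGTG was not searched for, so unmarked stretches may still hold it. A match is a description of the sequence and not a measured binding site.

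For the CYP26 genes, which inactivate retinoic acid, the motif was a direct repeat of AGGTCA or AGTTCA with 5 bases between the repeats, the form recognised by retinoic acid receptors. The runs lie at chr1:244883572-244883821 (plus strand), chr4:118616177-118616426 (minus strand) and chr1:244870162-244870411 (plus strand). The capitals mark the repeat in Cyp26a1, where it lies on the opposite strand, and TNGCGTG in Cyp26b1.
Cyp26a1: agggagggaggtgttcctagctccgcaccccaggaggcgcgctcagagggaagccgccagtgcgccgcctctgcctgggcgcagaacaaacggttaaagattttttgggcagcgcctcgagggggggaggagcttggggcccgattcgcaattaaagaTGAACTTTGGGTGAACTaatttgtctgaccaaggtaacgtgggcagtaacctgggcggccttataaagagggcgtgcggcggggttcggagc
Cyp26b1: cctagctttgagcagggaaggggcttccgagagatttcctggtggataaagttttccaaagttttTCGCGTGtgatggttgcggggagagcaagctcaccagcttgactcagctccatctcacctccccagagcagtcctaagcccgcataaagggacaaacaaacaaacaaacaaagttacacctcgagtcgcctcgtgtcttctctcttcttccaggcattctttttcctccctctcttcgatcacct
Cyp26c1: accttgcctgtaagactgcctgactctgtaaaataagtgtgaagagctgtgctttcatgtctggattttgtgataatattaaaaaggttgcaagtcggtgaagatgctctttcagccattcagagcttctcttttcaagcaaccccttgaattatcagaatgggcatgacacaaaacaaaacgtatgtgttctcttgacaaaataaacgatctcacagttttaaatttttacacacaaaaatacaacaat

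The repeat was found in 10 of 33469 promoters (0.0299%), and Cyp26a1 was the only member that held it, from 92 to 76 bases before its start site. Cyp26c1 and Cyp26a1 are neighbours on chromosome 1 in this assembly, with 13410 bases between their start sites. The windows of Cyp26b1 and Cyp26c1 did not hold the repeat.

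Most members gave little signal in these cells. The random-probe signal was exceeded by 77 members on the DMSO array and by 71 on the icariin array. It was exceeded on both arrays by 54 members, against 70.3% of all genes, on 1 array by 40 and on neither by 26. Of the receptor genes taken as silent, 27.1% also exceeded this signal on both arrays. Only 24 members passed the receptor level on at least 1 array, where 53.8% of all genes did, and 14 passed it on both arrays, where 38.2% of all genes did. These 14 were Arnt2, Por, Cyp1b1, Cyp2c23, Cyp4b1, Cyp4f6, Cyp4f17, Cyp4v3, Cyp20a1, Cyp26b1, Ugt1a6, Ugt1a7c, Sult1a1 and Sult4a1, and they are the members for which a ratio was measured on both sides. Of them, 7 also exceeded the 99th percentile of receptor genes (221 and 271) on both arrays, namely Por, Cyp1b1, Cyp4b1, Cyp4f6, Cyp20a1, Ugt1a6 and Sult1a1.

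As a set, the members did not shift in 1 direction. After icariin, 10 members were higher by 2-fold or more, beside 6.51% of all genes, and 7 were lower by 2-fold or more, beside 7.01% of all genes. Together these 17 were 14.2% of the members, beside 13.5% of all genes and 12.5% of the receptor genes, so the share was near background. The median log2 difference was -0.04 over the members and -0.02 over all genes, with 58 members higher and 62 lower by any amount, beside 48.5% and 51.4% of all genes. Of the 17, 10 lay at or below the receptor level on both arrays and 5 passed it on 1 array. Only Ugt1a7c (higher) and Sult4a1 (lower) differed 2-fold while above it on both arrays, where 2.96% of all such genes were higher and 4.39% lower. Among genes above it on at least 1 array, 7.95% were higher and 10.5% lower, beside 4 and 3 of the 24 members. Among genes above the random-probe signal on both arrays, 5.05% were higher and 6.06% lower, beside 3 and 2 of the 54 members. At 1.5-fold, 17 members were higher (16.4% of all genes) and 22 lower (17.8%), and at 3-fold 2 were higher (1.47%) and 1 lower (1.62%).

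**Figure D1:**
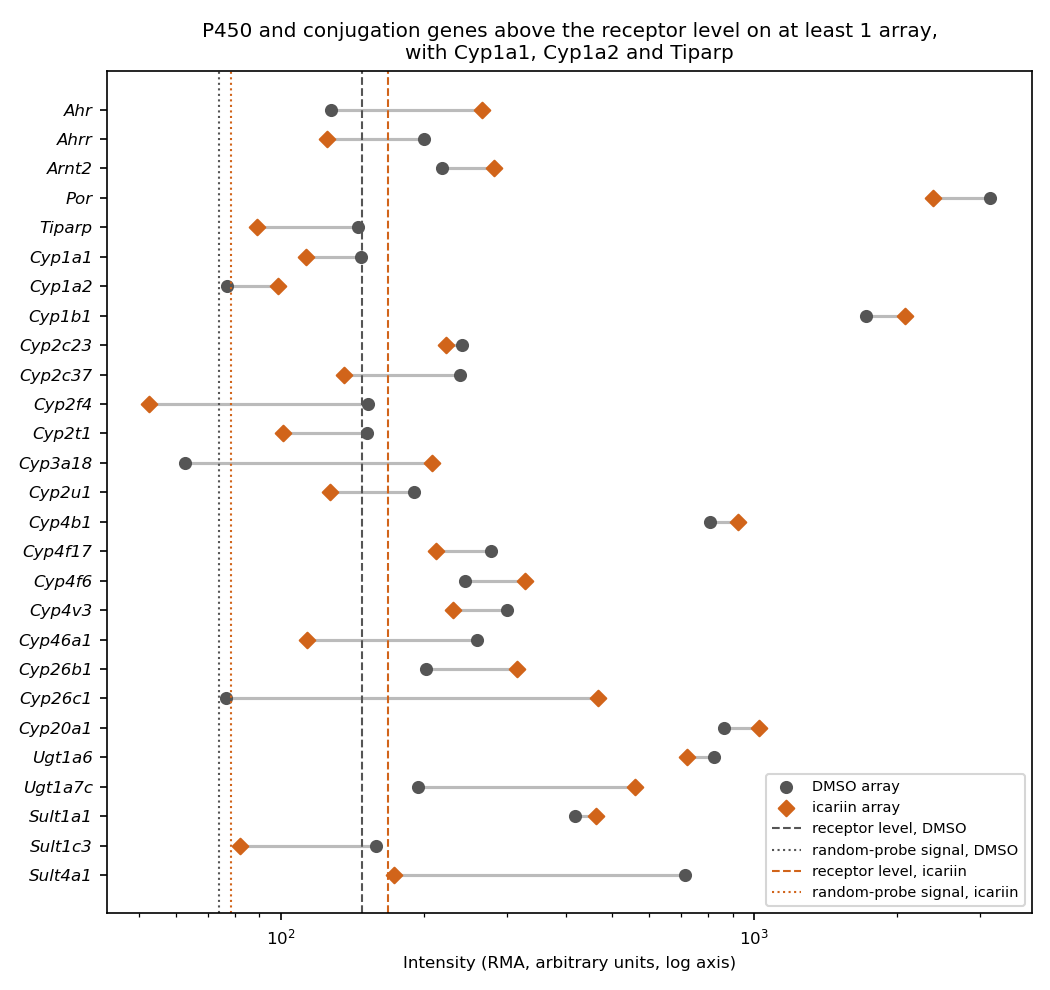
Intensity on the DMSO array (circles) and the icariin array (diamonds), on a log axis in arbitrary units, of the 24 members above the receptor level on at least 1 array and of Cyp1a1, Cyp1a2 and Tiparp. Dashed lines mark the receptor level (148 and 168) and dotted lines the random-probe signal (73.8 and 78.4). Sult4a1 went from 712 to 174 and Cyp26c1 from 76.6 to 467, while Por and Cyp1b1 kept well above both limits.

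**Figure D2:**
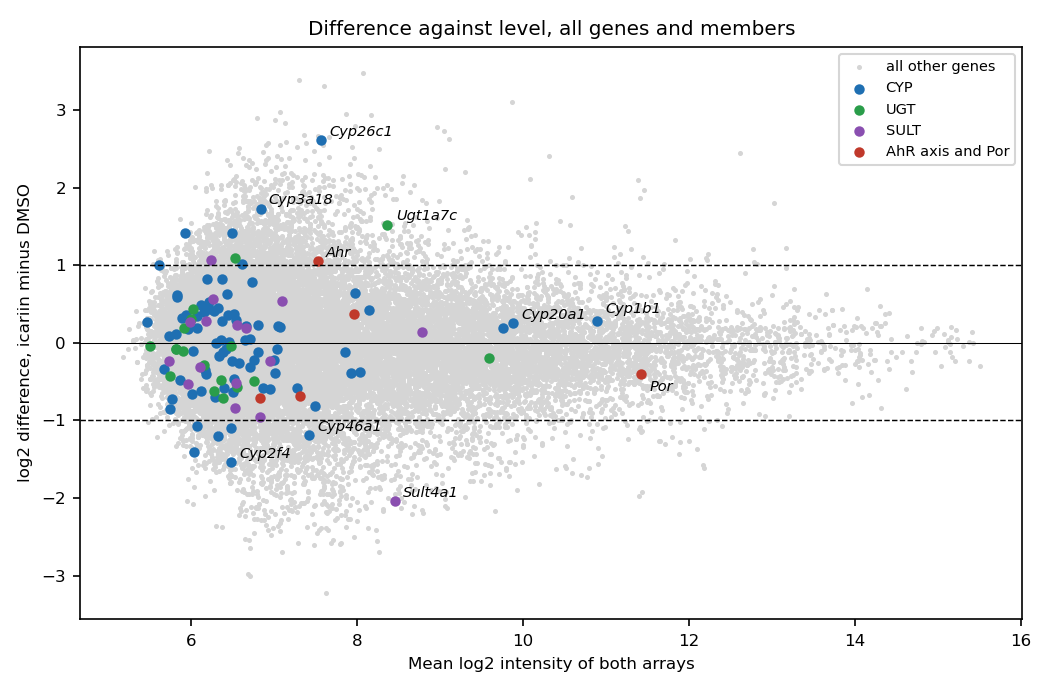
The log2 difference of icariin minus DMSO (vertical axis) against the mean log2 intensity of both arrays (horizontal axis) for all genes (grey) and the members (coloured by class). Dashed lines mark 2-fold. Most members lie at the dim end, and those with 2-fold differences lie among many grey points of equal level.

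Genes of the aryl hydrocarbon receptor pathway did not move together. Ahr, the receptor, read 128 on the DMSO array, below the receptor level there, and 266 on the icariin array, which makes it at least 1.58-fold higher. The value of 266 did not reach the 99th percentile of the receptor genes, and the 13 macrophage markers were all higher by some amount on the same array. Ahrr, the repressor of the receptor, read 201 and 125, at least 1.19-fold lower. Tiparp, an ADP-ribosyltransferase that limits receptor signalling, read 145 and 88.7 and passed the receptor level on neither array. Arnt2, a dimer partner of bHLH-PAS factors, read 219 and 282, a ratio of 1.29.

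The CYP1 enzymes, the classical targets of the receptor, showed no 2-fold difference. Cyp1b1, which hydroxylates estrogens and polycyclic hydrocarbons and is the CYP1 enzyme best known outside the liver, read 1720 on the DMSO array against 2082 on the icariin array. The ratio was 1.21 (log2 difference 0.28), in a decile of level where 4.05% of all genes differed 2-fold in either direction. Cyp1a1 read 147.8 on the DMSO array, just under the receptor level, and 113 on the icariin array. Cyp1a2, a liver enzyme, read 76.7 and 98.4, so neither gene of the CYP1A pair was measured above the receptor level and no ratio is given. The promoter of Cyp1b1 is the first of the sequences printed above, and that of Ahrr, which was lower, carries the same core letters.

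Of 8 partners and further targets of the aryl hydrocarbon receptor outside the set, 7 passed the receptor level on both arrays. Lrat passed it on neither (93.5 and 76.6). None of these 8 genes differed 2-fold, and the median log2 difference was -0.14. Arnt, the partner of the receptor on DNA, read 916 and 1018, and Nqo1, a quinone reductase, read 12858 and 12507. Nfe2l2, the transcription factor NRF2, which governs Nqo1 as well, read 1356 and 1576. Aldh3a1, an aldehyde dehydrogenase that aryl hydrocarbons induce in rodents, went from 6213 to 3211, 1.94-fold lower and so just inside the 2-fold limit.

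Por, the reductase on which all microsomal P450 enzymes depend, read 3147 on the DMSO array against 2385 on the icariin array, 1.32-fold lower. It lay far above the receptor level on both arrays. Beside Por, a list of 19 genes for electron and cofactor supply was followed, which also holds genes of haem turnover and of the conjugation cofactors. Of them, 1 was higher by 2-fold or more and none lower, beside 6.51% and 7.01% of all genes (median log2 difference -0.11). Cyb5a, the cytochrome b5 that passes electrons to some P450 enzymes, was 1.49-fold lower, from 1494 to 1004. Hmox1, which breaks down haem, was the higher gene, at 1485 and 4052, a ratio of 2.73.

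Supply of the conjugation cofactors went both ways. Ugdh, which makes UDP-glucuronic acid, the sugar donor of all glucuronosyltransferases, read 5287 and 7071, 1.34-fold higher. Ugp2, which makes its precursor UDP-glucose, read 500 and 266, 1.88-fold lower. Papss2, which makes the sulfate donor of the sulfotransferases, read 435 and 487, while Papss1 passed the receptor level on neither array (68.6 and 133).

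Of the CYP2 family, 31 genes were grouped as drug-metabolising, while the Cyp2j genes, Cyp2u1 and Cyp2r1 were placed in other groups. In this group, 27 genes were at or below the receptor level on both arrays. By 2-fold or more, 1 gene was higher and 2 were lower, beside 6.51% and 7.01% of all genes. The median log2 difference was 0.03. Cyp2c23, an epoxygenase of arachidonic acid in rat kidney, was the only one above the receptor level on both arrays, at 242 and 223, and differed 1.08-fold. Cyp2c37, named so by the file and not matched in RefSeq, read 239 and 136, at least 1.42-fold lower. Cyp2f4, known from lung for the oxidation of naphthalene, read 153 and 52.7, where the DMSO value barely passed the receptor level, so no fold is given. Cyp2t1 read 152 and 101 and the same applies to it.

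The other 2-fold differences of this group lay below the receptor level on both arrays. Cyp2a1, a steroid hydroxylase of rat liver, read 131 and 61.3, and Cyp2c6v1 read 68.7 and 139. The group's 25 genes without a 2-fold difference or a value above the receptor level included the liver enzymes Cyp2b2, Cyp2c11, Cyp2d1 and Cyp2e1. Their intensities spanned 40.2 to 135 on the DMSO array, and 40.0 to 144 on the icariin array. Sequences of CYP2 subfamilies are close relatives, and whether their probes share signal was not tested.

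The CYP3A genes, whose products metabolise many drugs and steroids, differed in both directions and at low signal. Of 7 genes, 3 were higher and 2 lower by 2-fold or more, beside 13.5% of all genes in either direction and 7.79% of genes at or below the receptor level on both arrays. With so few genes nothing is read from that share, and 6 of the 7 were at or below the receptor level on both arrays. Cyp3a18, a liver form, read 62.8 on the DMSO array against 208 on the icariin array, at least 1.24-fold higher, and 208 did not reach the 99th percentile of the receptor genes. The other higher genes were Cyp3a73 (55.4 and 148) and Cyp3a23-3a1 (37.3 and 99.7), and the lower ones were Cyp3a2 (106 and 40.1) and Cyp3a9 (121 and 52.8). A separate sequence carries the name Cyp3a1, which RefSeq lists as an older name of Cyp3a23-3a1, and it read 113 and 73.1, against the direction of its namesake.

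Among 21 P450 genes of fatty acid and eicosanoid metabolism, 1 was lower by 2-fold or more and none higher. Of all genes, 7.01% were lower and 6.51% higher by that fold. The median log2 difference of the 21 genes was 0.01. Cyp4b1, which oxidises fatty acids and some lung toxins, read 805 and 923, a ratio of 1.15. Cyp4v3, the rat counterpart of a fatty acid hydroxylase known from the eye, read 300 and 231, and Cyp4f17 read 278 and 213, both about 1.3-fold lower (1.30 and 1.31). Cyp4f6, which hydroxylates eicosanoids, read 245 and 328, 1.34-fold higher. These genes of the CYP4 family thus differed by less than 2-fold in both directions while above the receptor level on both arrays.

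Cyp2u1, a fatty acid hydroxylase, passed the receptor level only on the DMSO array (191 and 127) and was at least 1.13-fold lower. The gene of this group at least 2-fold lower was Cyp2j10, at 97.6 and 46.5, below the receptor level on both arrays. The remaining 15 genes, with the CYP4A enzymes that PPARα controls in liver, read between 55.1 and 117 on the DMSO array and between 56.0 and 139 on the icariin array. Cyp20a1, an orphan P450 with no established substrate, read 861 and 1025, a ratio of 1.19.

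Steroid, bile acid and vitamin D enzymes were near background. All 6 genes of steroid hormone synthesis read higher on the icariin array, among them Cyp11a1, the side-chain cleavage enzyme (93.7 and 109), and Cyp21a1, the 21-hydroxylase (34.7 and 69.5). None of them passed the receptor level on either array, so no ratio is given. Of all 11193 genes that likewise did not, 6052 read higher. Cyp21a1 was the 1 gene counted as 2-fold higher, although both of its values lay below the random-probe signal.

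Of the bile acid and sterol genes, Cyp27a1, the sterol 27-hydroxylase that macrophages use to make an oxysterol, read 78.9 and 78.7, barely above the random-probe signal on both arrays. Cyp7a1, the rate-limiting enzyme of bile acid synthesis, read 81.3 and 51.5. Cyp46a1, the cholesterol 24-hydroxylase known from neurons, was the only gene of the 6 to pass the receptor level, on the DMSO array only. The mean of its sequences was 259 and 113, and no bound is given because the sequences differed in size. One sequence went from 267 to 73.6 and the other from 251 to 174, and the second stayed above the receptor level on both arrays with a 1.44-fold difference. With the brightest sequence in place of the mean, Cyp46a1 was no longer 2-fold different (log2 difference -0.53).

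The vitamin D enzymes gave no measurable ratio. Cyp27b1, which makes the active hormone, read 138 and 119. Cyp24a1, which degrades the hormone and is induced by it, read 68.9 and 49.6, and Cyp2r1, the 25-hydroxylase, read 54.1 and 58.7, both below the random-probe signal on both arrays. The receptor gene Vdr read 128 and 199, at least 1.18-fold higher.

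The genes that clear retinoic acid differed from each other. Cyp26c1 read 76.6 on the DMSO array, barely above the random-probe signal, and 467 on the icariin array, and was at least 2.77-fold higher. Cyp26b1, the form known from the skeleton, read 202 and 315, above the receptor level on both arrays and 1.56-fold higher. Cyp26a1, named after its values were seen, carries the retinoic acid response repeat printed above and read 143 and 95.6, passing the receptor level on neither array. Its neighbour on the chromosome, Cyp26c1, read the other way. With Cyp26a1 under the receptor level on both arrays, nothing is read from that. In the decile of level that holds Cyp26b1 and Cyp26c1, 21.1% of all genes differed 2-fold.

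The enzymes that make retinoic acid were on the list of other phase I and II enzymes. Aldh1a1 read 441 and 113, at least 2.62-fold lower, and Aldh1a2 read 396 and 376. Aldh1a3 was below the random-probe signal on both arrays (71.4 and 67.1).

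Glucuronosyltransferases were represented by 8 Ugt1 and 10 Ugt2 genes. Ugt1a7c, a form that conjugates planar phenols and polycyclic compounds, read 194 on the DMSO array against 559 on the icariin array. It was 2.87-fold higher (log2 difference 1.52) and the only member higher by 2-fold or more that passed the receptor level on both arrays, although 194 did not reach the 99th percentile of the receptor genes. Ugt1a6, which conjugates small phenols, read 823 and 722, a ratio of 1.14 in the opposite direction. In the decile of level that holds Ugt1a7c, 4.92% of all genes were at least 2-fold higher.

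Transcripts of the Ugt1a genes share their last exons and differ in the first, and the sources used here do not say where the 5 probes of each sequence lie. The other 6 Ugt1 genes were at or below the receptor level on both arrays and so did not follow Ugt1a6 and Ugt1a7c above it. Of them, Ugt1a3 read 63.3 and 135 and was counted as 2-fold higher, while Ugt1a1, the bilirubin form, read 78.7 and 64.7. All 10 Ugt2 genes were at or below the receptor level on both arrays. Their values ran from 46.3 to 128 on the DMSO array and from 44.9 to 91.2 on the icariin array. Lower readings came in 7 of them, where 5135 of all 11193 such genes read lower. With 10 genes nothing is read from that count.

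Of 16 sulfotransferase genes, 1 was higher and 1 lower by 2-fold or more, beside 6.51% and 7.01% of all genes. The median log2 difference was -0.04. Sult4a1, a form known from brain and without an established substrate, read 712 on the DMSO array against 174 on the icariin array. It was 4.11-fold lower (log2 difference -2.04), where 8.05% of all genes in its decile of level were at least 2-fold lower. The icariin value lay just above the receptor level. Sult1a1, the main phenol sulfotransferase, read 419 and 462, a ratio of 1.10.

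The other sulfotransferases were dim. Sult1c3 read 159 and 81.8, and Sult2a1, which sulfates hydroxysteroids and bile acids in liver, read 52.3 and 109 and was counted as 2-fold higher, with both values below the receptor level. Sult1e1, the estrogen sulfotransferase, was represented by 3 sequences, all of which read lower on the icariin array (99.8 and 58.1, 89.0 and 67.3, 155 and 119). The largest of their values was 155 on the DMSO array, and the mean of the sequences (111 and 77.5) was below the receptor level on both arrays.

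**Figure D3:**
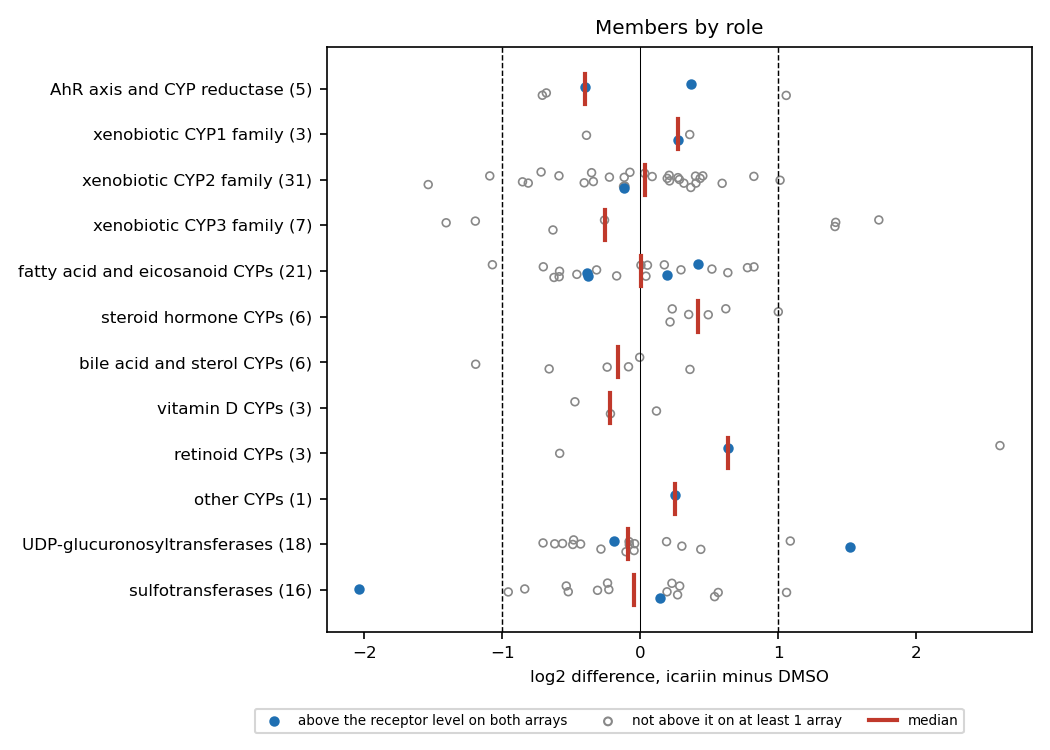
The log2 difference of icariin minus DMSO for the 120 members in rows by role, with the number of genes in parentheses. Filled points passed the receptor level on both arrays, open points did not, red bars are medians and dashed lines mark 2-fold. Only Ugt1a7c at 1.52 and Sult4a1 at -2.04 are filled points beyond 2-fold.

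Where a gene had several sequences, these were separate probe sets for different sequence records, read on the same pair of RNAs. They are not exact repeats, and the cause of the gaps between them was not tested. Among the 1956 genes with more than 1 sequence, the median gap between the highest and the lowest log2 difference was 0.57, and in 44.4% of them the sequences had opposite signs. Of 515 genes with a sequence at least 2-fold different, 58 had all sequences 2-fold different in the same direction. Above the receptor level on both arrays, the median gap of the 653 genes with 2 sequences was 0.43.

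Of the members, 14 had more than 1 sequence, with a median gap of 0.42, and in 4 of them the signs were opposite. Cyp2b12 had 4 sequences with log2 differences from -0.48 to 1.61, and Cyp2c6 had 2, at -0.59 and 0.65. No member had all sequences 2-fold different in the same direction. The members with the largest differences, Cyp26c1, Sult4a1, Cyp3a18, Cyp2f4 and Ugt1a7c, each had 1 sequence, so no further sequence stands beside them.

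**Figure D4:**
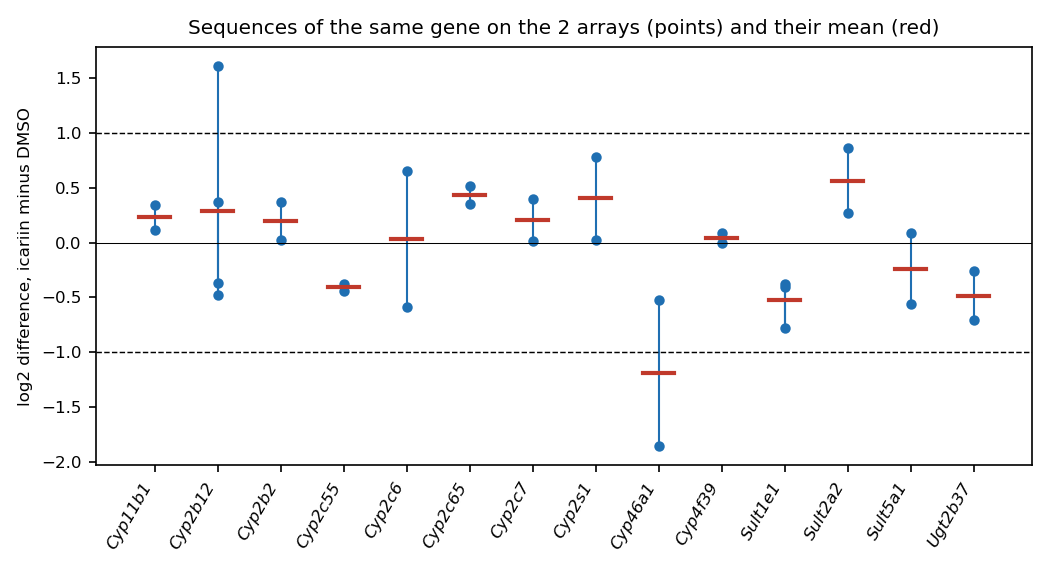
The log2 difference of icariin minus DMSO for each sequence (points) of the 14 members with more than 1 sequence, with the mean in red and dashed lines at 2-fold. The 4 sequences of Cyp2b12 spread from -0.48 to 1.61, while both of Cyp46a1 were lower.

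Other genes of the pathway were given by lists, and beside each count stand the shares of all genes, 6.51% higher and 7.01% lower by 2-fold or more. Of 14 nuclear receptors of xenobiotics and lipids, 2 were lower by 2-fold or more and none higher (median log2 difference -0.45). Nr1i3, the constitutive androstane receptor that controls CYP2B genes, read 630 and 312, 2.02-fold lower, and Nr1i2, the pregnane X receptor that controls CYP3A genes, was below the random-probe signal on both arrays (70.6 and 76.0). The other lower gene was Nr3c1, the glucocorticoid receptor, below the receptor level on both arrays (136 and 65.8). Nr1h2, an oxysterol receptor, was 1.57-fold lower, from 942 to 601.

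Glutathione transferases, which conjugate electrophiles, read lower in 19 of 23 cases, where 51.4% of all genes read lower, and the median log2 difference was -0.25. By 2-fold or more, 2 were lower and none was higher. Gstt3 read 956 and 341, 2.80-fold lower, and Gstt2 was at least 1.19-fold lower. Gstm5 and Gstm7 were 1.85 and 1.86-fold lower, from 550 to 298 and from 1186 to 638. Close relatives of the Gstm group may share probe signal, which was not tested.

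In the list of other phase I and II enzymes, 4 of 26 genes were lower by 2-fold or more (7.01% of all genes). In the other direction 1 was higher (6.51% of all genes), and the median was -0.09. The 4 lower genes passed the receptor level on the DMSO array only. The higher gene, Ces1d, passed it on neither array (41.7 and 85.6). Maob, a monoamine oxidase, read 370 and 126, at least 2.20-fold lower, and Nat1, an arylamine acetyltransferase, read 268 and 67.7, at least 1.59-fold lower. Ces2c, a carboxylesterase, was at least 1.15-fold lower. Ephx1, the microsomal epoxide hydrolase, was 1.35-fold lower, from 2819 to 2095, and was named after its values were seen.

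NRF2 targets differed little, with Hmox1 the 1 of 12 genes at least 2-fold higher and a median log2 difference of -0.04. Gsr, Gclm and Txnrd1, genes of glutathione and thioredoxin metabolism, were 1.43, 1.42 and 1.38-fold lower. Macrophage markers were higher on the same array, and their part in the Hmox1 value was not tested. Of 8 drug efflux transporters, Abcc2, which exports glucuronides and other conjugates, was the 1 gene at least 2-fold higher, at 104 and 365, with a bound of 2.17. Abcc4 and Abcb1a read lower (1.42-fold and a bound of 1.09) and Abcc3 higher (1.27-fold), and the median was -0.09.

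Markers of hepatocytes, the cells in which most members are known to act, were near background. Of 8 genes, 7 were at or below the receptor level on both arrays, among them Alb, the albumin gene (91.2 and 136), and Apoa1 (68.9 and 67.7). The exception was Tf, which encodes transferrin and is made by other cells too, at 4081 and 1846.

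**Figure D5:**
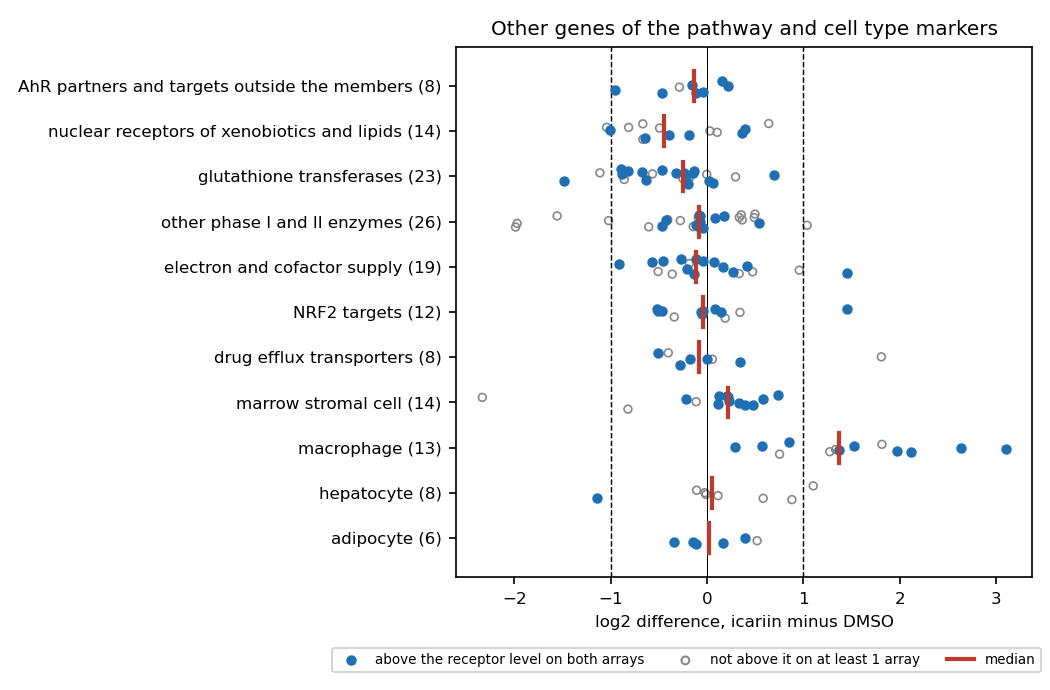
The log2 difference of icariin minus DMSO for the genes of 7 pathway lists and 4 cell type lists, with the number of genes in parentheses. Filled points passed the receptor level on both arrays, red bars are medians and dashed lines mark 2-fold. The macrophage markers are all to the right of 0 (median 1.37), and 19 of 23 glutathione transferases are to the left.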

How the data were processed

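Rat BMSC RNA was measured on 1 array per condition, with groups from the treatment label. The deposited intensity values are linear, 1 per sequence, and the authors obtained them in NimbleScan by RMA after quantile normalization. Every member sequence had 5 probes. The sources used here give neither its version nor its background step. Quantile normalization equalises the arrays, so it would hide a shift shared by all transcripts.

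RefSeq (GRCr8) named 20681 sequences through gene identifiers and 31 through transcripts, while 5707 retained their symbol from the file. The log2 values of a gene's sequences were averaged with pandas 2.3.3, and differences are icariin minus DMSO. The deposited standard errors, of unstated scale, were not used. The fold filter was 2-fold, since the study's methods name none. Its run on simulated data checked the code only and says nothing of the noise on these arrays. Where the dimmer array did not pass its receptor level, "at least" ratios take values under 168 as 168, a convention and not a sure bound.

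The members and lists were chosen with earlier results of these data known. Described were members above the receptor level on at least 1 array or 2-fold different, the AhR, CYP1 and vitamin D genes, Cyp27a1 and Cyp26b1 whatever their level, and up to 4 genes per other list. Where a gene beyond these is named, it was chosen after its values were seen. Alternatives comprised the series' value table, a centring, a loess of span 0.3, the brightest sequence, added constants of 16 and 64, floors, filters, folds of 1.5 and 3, and other background limits.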

Additional observations from a re-analysis of the deposited data

How the results depend on the processing

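The counts of members at least 2-fold higher (10) and lower (7) were the same with centring. They were 9 and 7 with loess, 11 and 6 with the brightest sequence, and 11 and 7 with sequences in place of genes. The series' value table holds nearly the same values but leaves out 6374 sequences of the array, all under 100. It gave 8 and 6 over 67 members and is no independent check. They were lower wherever dim values were damped or left out. With 16 added to both values they were 5 and 4, with 64 added 3 and 1, with values raised to the receptor-level floor 2 and 1, and with values raised to the random-probe floor 4 and 2. Restricting the set to the 24 members above the receptor level on at least 1 array gave 4 and 3 with a median log2 difference of -0.15, and to the 14 above it on both arrays 1 and 1 with a median of 0.17. Among the 54 members above the random-probe signal on both arrays the counts were 3 and 2. At 1.5-fold they were 17 and 22, and at 3-fold 2 and 1. With the 99th percentile of receptor genes as limit, 7 members passed on both arrays, and with the random-probe signal 94 passed on at least 1 array and 54 on both. Of the 41 members named by rule, raising values to the receptor-level floor changed the 2-fold call of 14. None of the 17 that differed 2-fold changed direction in the alternatives run. Added constants, floors and the value table cannot reverse a sign, however, so nothing is read from that. The cause was not tested. Signal over background is a limit beside the single array per condition, since 96 of 120 members were at or below the receptor level on both arrays. No paired analysis was possible because each condition has 1 array, and no replicate could be left out.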

Other observations

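Adipocyte markers, which marrow stromal cultures can carry, were followed beside the P450 genes, since fat cells also use several of them. Of 6 genes, 5 passed the receptor level on both arrays and none differed 2-fold (median log2 difference 0.02). Adipoq, the adiponectin gene, read 537 (DMSO) and 487 (icariin), Plin1, a lipid droplet protein, 2311 and 2583, and Fabp4, a fatty acid carrier, 14186 and 11222. Lep, the leptin gene, was below the random-probe signal on both arrays (50.6 and 72.5). Pparg, the factor that drives the lineage, read 466 and 612.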
